A study of Mus musculus with 67 samples.

Results

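Chromatin accessibility at day 4 of differentiation was compared between p0-1 and pMN neural progenitors (NPs), the dorsal-most and the motor neuron-forming progenitors of the ventral neural tube that were sorted in this study. The comparison took every day 4 p0-1 sample, 3 from 0 nM and 3 from 10 nM SAG, and every day 4 pMN sample, 3 from 100 nM and 3 from 500 nM SAG, which makes 12 of the 67 samples in the series. All came from HM1, a mouse embryonic stem cell line, differentiated toward spinal cord and held from day 3 in 100 nM retinoic acid with or without SAG, a small molecule that activates the Hedgehog receptor component Smoothened. Cells were fixed, treated with the Tn5 transposase that tags open chromatin, stained with antibodies inside the cell and sorted, a procedure named CaTS-ATAC. Per the study's methods, p0-1 were SOX2-positive cells with PAX6 and without NKX6.1, and pMN were SOX2-positive cells with OLIG2 and without NKX2.2. The p0-1 gate therefore pools neighbouring domains, and p0-1 and pMN were never sorted from the same SAG concentration, so cell type and SAG concentration cannot be told apart in this comparison. The study describes the 3 replicates of a condition as separate differentiations, but whether 2 concentrations of one type shared a differentiation is not given in the sources used here, so the 6 samples of a type may not all be independent.

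In the neural tube, Sonic Hedgehog spreads from the floor plate and notochord, binds the receptor PTCH1 and so releases Smoothened, and the GLI factors then turn from repressors into activators of transcription. Graded signaling sets apart domains of progenitors through transcription factors that repress each other: Nkx6-1, Olig2 and Nkx2-2 mark ventral domains, while Pax6, Irx3 and Dbx1 mark more dorsal ones. Ptch1, Hhip and Gli1 are themselves activated by the pathway, and Ptch1 and Hhip restrain it.

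Of the elements (consensus ATAC-seq peaks), 29762 had a mean above 100 normalized counts over the 12 samples and were tested. An element was called when its limma adjusted p was under 0.01 and its log2 ratio of mean normalized counts, pMN over p0-1, was beyond 2 in either direction. In a sorted bulk sample, fewer open cells and a smaller opening per cell give the same count and cannot be told apart. The comparison called 155 elements, 0.521% of those tested. They were 151 higher in pMN (0.507%) and 4 lower (0.0134%). With a fold change above 2 in place of the log2 threshold, 1160 elements passed (3.9%), 993 of them higher in pMN (3.34%) and 167 lower (0.561%). The median log2 ratio over all tested elements was -0.11, and 32.4% of the elements had a ratio above 0, so the called elements stood out against a slight shift the other way.

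**Figure D1:**
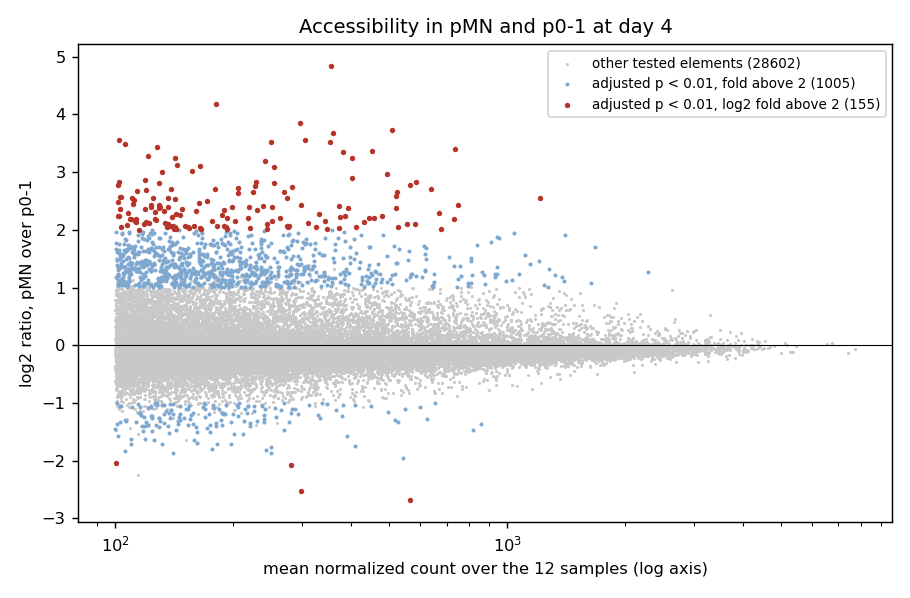
Log2 ratio of mean normalized counts, pMN over p0-1, against the mean normalized count over the 12 samples (log axis), for the 29762 tested elements at day 4. Red points are the 155 called elements, of which 151 lie above 0, and blue points are the other elements past an adjusted p of 0.01 and a fold change of 2.

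The 6 p0-1 and the 6 pMN samples did not overlap at any of the 155 called elements, against 2640 of all 29762 tested (8.87%). The call used these same samples and a wide ratio, so the lack of overlap follows largely from the choice. At the threshold, the called elements with the smallest increase were nearest Pard3bos2 and Fut9, with log2 ratios of 2.00 and 2.01. Elements nearest Gm9871 and Ccdc88a, at 1.99 each, fell just outside.

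Samples held between 14866189 and 21532874 reads in elements. The p0-1 samples were less alike than the pMN samples. Over the tested elements, the squared Pearson correlation between samples of one condition was between 0.762 and 0.930 in p0-1 and between 0.920 and 0.947 in pMN. Replicate 3 of p0-1 at 10 nM SAG stood apart, with a median VST value of 5.33 against 5.53 to 5.67 in the other samples. Without it 148 elements were called, 143 higher and 5 lower. The first principal component, 53.4% of the variance, ran from that sample to the pMN samples, and the second, 21.0%, held the other p0-1 samples at negative and the pMN samples at positive scores.

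The elements that carried the comparison are shown first by sequence, as 200 bases at the center of each element on the plus strand of GRCm38, the build the study names mm10. The ones printed are the 3 largest increases that hold one of the words marked here, the largest increase near each of the regulators Ptch1, Foxa2, Olig1 and Nkx6-1, and the largest decrease of all, of the dorsal list and of the Hedgehog list. Capitals mark TGGGTGGTC (a GLI site in its commonest form), TAATTA (a homeodomain site) or an E-box (CAGCTG as the first form, CATATG as the next or CAGATG) on either strand, and a sequence in lower case has none of these letters in this window.
Nkx2-9, chr12:56621351-56621550: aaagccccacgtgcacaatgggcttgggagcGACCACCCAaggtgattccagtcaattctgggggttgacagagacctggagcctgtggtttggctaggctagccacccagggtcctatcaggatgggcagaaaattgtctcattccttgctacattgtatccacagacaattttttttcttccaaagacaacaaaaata
Nxph1, chr6:9002813-9003012: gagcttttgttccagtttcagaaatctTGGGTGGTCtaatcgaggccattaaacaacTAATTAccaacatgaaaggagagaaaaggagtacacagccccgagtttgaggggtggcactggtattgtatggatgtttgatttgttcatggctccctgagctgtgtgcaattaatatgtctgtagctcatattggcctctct
Gm815, chr19:26930482-26930681: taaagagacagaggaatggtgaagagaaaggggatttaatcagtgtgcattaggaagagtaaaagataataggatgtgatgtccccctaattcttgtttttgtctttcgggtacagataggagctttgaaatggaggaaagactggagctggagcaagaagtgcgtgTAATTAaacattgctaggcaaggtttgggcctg
Ptch1, chr13:63506795-63506994: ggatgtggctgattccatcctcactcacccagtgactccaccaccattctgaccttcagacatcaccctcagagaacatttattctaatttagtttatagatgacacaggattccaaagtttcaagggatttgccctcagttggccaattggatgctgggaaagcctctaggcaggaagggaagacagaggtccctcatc
Foxa2, chr2:148036902-148037101: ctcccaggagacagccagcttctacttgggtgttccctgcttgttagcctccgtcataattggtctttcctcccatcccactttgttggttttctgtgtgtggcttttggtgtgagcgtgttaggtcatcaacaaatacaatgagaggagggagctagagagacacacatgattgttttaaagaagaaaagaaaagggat
Olig1, chr16:91297792-91297991: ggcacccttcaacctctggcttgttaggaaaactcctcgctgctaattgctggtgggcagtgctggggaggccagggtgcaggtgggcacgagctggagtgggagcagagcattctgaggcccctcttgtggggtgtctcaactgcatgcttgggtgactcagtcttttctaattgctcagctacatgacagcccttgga
Nkx6-1, chr5:101323214-101323413: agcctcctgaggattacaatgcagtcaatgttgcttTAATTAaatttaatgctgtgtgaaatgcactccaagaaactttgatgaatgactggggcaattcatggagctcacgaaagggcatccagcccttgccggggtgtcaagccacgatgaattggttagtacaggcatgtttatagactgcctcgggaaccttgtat
Sfrp5, chr19:42211667-42211866: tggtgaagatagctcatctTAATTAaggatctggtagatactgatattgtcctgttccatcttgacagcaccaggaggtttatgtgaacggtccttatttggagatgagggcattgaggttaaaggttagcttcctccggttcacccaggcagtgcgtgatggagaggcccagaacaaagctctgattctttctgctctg
Dbx1, chr7:49696516-49696715: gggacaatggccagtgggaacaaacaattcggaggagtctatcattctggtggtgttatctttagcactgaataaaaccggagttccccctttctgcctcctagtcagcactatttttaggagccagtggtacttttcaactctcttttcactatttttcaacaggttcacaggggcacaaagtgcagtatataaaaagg
Cdon, chr9:35372452-35372651: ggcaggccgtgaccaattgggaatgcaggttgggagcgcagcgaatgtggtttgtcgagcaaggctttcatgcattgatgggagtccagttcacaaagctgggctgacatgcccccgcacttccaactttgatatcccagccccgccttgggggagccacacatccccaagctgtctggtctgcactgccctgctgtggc

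The largest increase in pMN was at an intergenic element 8166 bp upstream of Nkx2-9, a homeobox gene of the most ventral progenitors, at chr12:56621016-56621884. Its lowest, median and highest normalized counts were 14.4, 17.3 and 41.3 in p0-1 and 370.4, 698 and 1015 in pMN. The lowest pMN sample was well above the highest p0-1 sample, and the mean was 24 ± 12.7 (SD, n = 6) in p0-1 and 688 ± 239 (SD, n = 6) in pMN, with a log2 ratio 4.84, VST difference 4.30 ± 0.26 (SE), adjusted p = 1.42e-07. The next was an intergenic element at chr17:16621783-16622814, whose nearest annotated gene, Gm51425, lies 382818 bp away. It had 12.7, 18 and 32.3 normalized counts in p0-1 and 230.3, 345 and 438 in pMN as lowest, median and highest (log2 ratio 4.18, VST difference 3.54 ± 0.19 (SE), adjusted p = 8.54e-08). An intron of Nxph1, which codes for a secreted ligand of neurexins, held the element at chr6:9002484-9003341, 52893 bp from the start site. There p0-1 had 17.6, 38 and 51.1 and pMN 398, 568 and 669.8 (log2 ratio 3.85, VST difference 3.51 ± 0.19 (SE), adjusted p = 8.54e-08). All 3 elements were nearly closed in every p0-1 sample.

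Of the other increases among the 10 largest, 2 lay near the Hedgehog receptor gene or in a cluster of called elements. The element at chr13:63729502-63730614, in an intron of the noncoding gene 1700024I08Rik, lay 156042 bp from Ptch1 and had a mean of 71 ± 19.7 (SD, n = 6) in p0-1 and 946 ± 259 (SD, n = 6) in pMN, with a log2 ratio of 3.74. An intergenic element 44656 bp from Gm815, at chr19:26929894-26931269, had 26.7, 46.9 and 106 in p0-1 and 309, 650.4 and 1089 in pMN, and its log2 ratio was 3.68. The others were nearest 4930405L22Rik, Spata19, Cobl, Pmp22 and Esrrg, with log2 ratios between 3.44 and 3.55. Cobl codes for a nucleator of actin filaments and Esrrg for an orphan nuclear receptor. The distances of these 5 elements to the nearest start site were between 32311 and 609256 bp, so the gene named is the nearest and was not shown to be the target.

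Only 4 elements were called lower in pMN, all intergenic. The largest was 9514 bp upstream of Sfrp5, a secreted inhibitor of Wnt signaling, at chr19:42211111-42212421, with 605, 1020.5 and 1359.9 normalized counts in p0-1 and 69.8, 152 and 221 in pMN as lowest, median and highest (log2 ratio -2.69, VST difference -2.62 ± 0.27 (SE), adjusted p = 1.24e-05). It was open in all p0-1 samples, with no overlap between the groups. The other 3 were nearest 2310008N11Rik, Fgfr2, a fibroblast growth factor receptor gene, and Cdk6, a kinase gene of the cell cycle, with log2 ratios of -2.52, -2.08 and -2.04. At Cdk6 the p0-1 samples ran from 105 to 261 and the pMN samples from 28.5 to 52. Without replicate 3 of p0-1 at 0 nM SAG, 2 elements were called lower in place of 4.

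**Figure D2:**
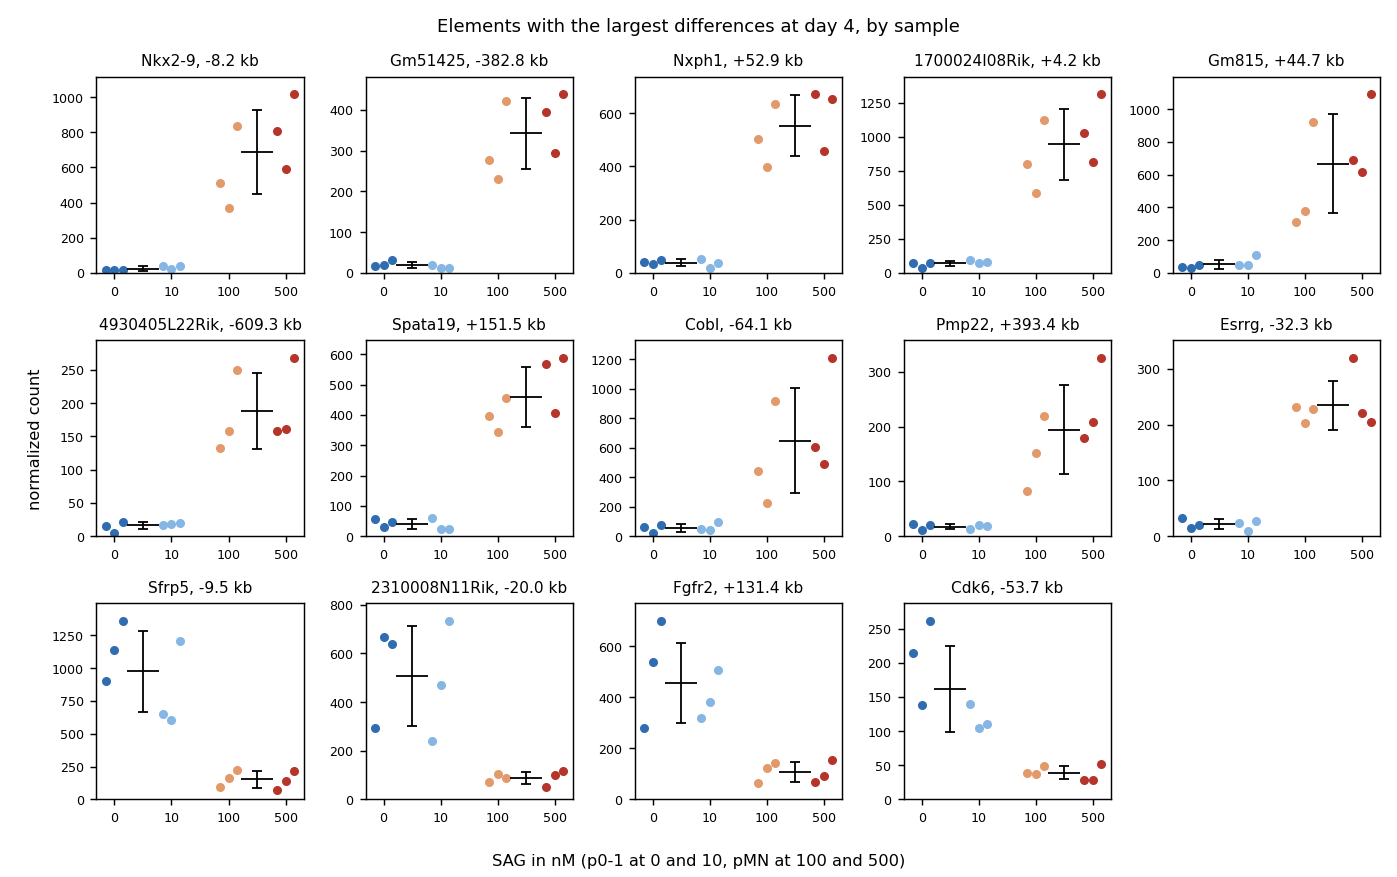
Normalized counts in each of the 12 samples at the 10 elements with the largest increase in pMN, 1 per nearest gene, and at the 4 called elements lower in pMN, with the distance to the start site of the nearest gene. Points are samples by SAG concentration, and bars are the mean and SD of the 6 samples of each type; no p0-1 sample overlaps a pMN sample in any panel.

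At the genes that the gates used, accessibility of the start site was higher in pMN by more than 2-fold at Olig2 and differed less at the others tested. The element at the Olig2 start site, chr16:91224754-91227830, had 350.4, 584 and 1011 normalized counts in p0-1 and 1204, 1339.7 and 1510.1 in pMN (log2 ratio 1.12, VST difference 1.17 ± 0.18 (SE), adjusted p = 4.75e-04). No p0-1 sample reached the lowest pMN sample, but the element was also open in p0-1. It was open before the types were sorted as well, with a mean of 1114 in the common precursors of day 3. At the Nkx6-1 start site the values were 1121, 1463 and 2208 and 2037, 2193 and 2240.3, with overlap, and the adjusted p of 0.0101 missed the threshold. In the fit blocked on replicate number it was 0.00319, and without replicate 3 of p0-1 at 10 nM SAG it was 8.33e-05. At the start site of Pax6, which both gates allow, the mean was 2993 ± 439 (SD, n = 6) in p0-1 and 2903 ± 189 (SD, n = 6) in pMN, with an adjusted p of 0.822, and none of the elements tested near Pax6 passed a fold change of 2. The Sox2 start site had a log2 ratio of 0.23 and an adjusted p of 0.199. No element carried the name Nkx2-2 within 1000 bp of a start site, and none annotated to Nkx2-2 was tested. Elements were looked up by the annotated gene name only. One at Nkx2-2 under the name of another gene would be missed, so accessibility there is not settled here.

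At ventral transcription factor genes the elements that changed all rose. Of 47 tested elements annotated to 7 of the 8 genes of this list, 21 had a higher accessibility in pMN by more than 2-fold and 0 a lower one, 44.7% against 3.9% of all tested, and 8 were called, 17.0% against 0.521%. The median log2 ratio was 0.78 over these elements and -0.11 over all tested elements. They were annotated to Nkx6-1, Olig1, Olig2, Nkx2-9 and Foxa2. The Nkx6-1 locus had 8 of the 21, spread between 8798 and 367191 bp from the start site, and the largest of them, at chr5:101322750-101323876, had 137, 299 and 364 in p0-1 and 966, 1181 and 1513 in pMN (log2 ratio 2.19, VST difference 2.21 ± 0.23 (SE), adjusted p = 1.41e-05).

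Olig1 and Olig2 are neighbouring genes for basic helix-loop-helix factors, and Olig2 directs motor neuron fate. The element 28122 bp from the Olig1 start site, at chr16:91297498-91298284, had 68.5, 81.9 and 183 normalized counts in p0-1 and 591, 717 and 810.4 in pMN (log2 ratio 2.89, VST difference 2.80 ± 0.19 (SE), adjusted p = 2.98e-07). All p0-1 samples were low here, and the highest was replicate 3 of p0-1 at 10 nM SAG. The element 9237 bp from the Olig2 start site, at chr16:91231830-91237744, had a mean of 61.3 ± 17.6 (SD, n = 6) in p0-1 and 256 ± 83.3 (SD, n = 6) in pMN (log2 ratio 2.06, VST difference 1.84 ± 0.22 (SE), adjusted p = 4.78e-05). An element at -32473 bp was the most open of the changed ones near Olig2, with means of 1336 in p0-1 and 3232 in pMN and a log2 ratio of 1.28.

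Foxa2, the forkhead factor of floor plate and p3, had 3 elements higher in pMN by more than 2-fold. The largest, 9968 bp from its start site at chr2:148036783-148037220, had 42.2, 82.2 and 121 in p0-1 and 610.3, 888 and 934 in pMN (log2 ratio 3.37, VST difference 3.25 ± 0.22 (SE), adjusted p = 3.32e-07). In p3 NPs at day 4 its mean was 713, and at day 3 in the common precursors (NMPs) it was 72.7. The start site element of Nkx2-9 rose as well, from 642 ± 106 (SD, n = 6) in p0-1 to 1772 ± 268 (SD, n = 6) in pMN. Among start site elements annotated by name to a ventral gene, only this one and that of Olig2 passed a fold change of 2.

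At the p0-1 and dorsal transcription factor genes, elements went in both directions. Of 92 tested elements of 18 genes, 3 were higher and 4 lower in pMN by more than 2-fold, 7.61% against 3.9% of all tested, and the median log2 ratio was -0.26. Called were 2 elements (2.17% against 0.521%), both higher in pMN. The largest decrease was 59780 bp upstream of Dbx1, the homeobox gene of the p0 domain, at chr7:49696204-49697027, with 393, 861 and 1387 normalized counts in p0-1 and 189, 216 and 253 in pMN (log2 ratio -1.95, VST difference -1.79 ± 0.24 (SE), adjusted p = 1.18e-04). The p0-1 samples varied widely and none overlapped pMN. Elements near Prdm13 (-2778 bp) and Irx3 (-28362 bp) also fell, with log2 ratios of -1.47 (adjusted p = 7.52e-05) and -1.64 (adjusted p = 2.69e-04).

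The 3 dorsal-list elements that rose in pMN were near Olig3, Sp8 and Irx3. At Olig3, which codes for a factor of dorsal progenitors, an element at -73163 bp had a mean of 44.6 ± 15.6 (SD, n = 6) in p0-1 and 192 ± 10.5 (SD, n = 6) in pMN, with a log2 ratio of 2.11 (adjusted p = 4.46e-06). At Sp8, a zinc finger factor gene, an element at -16352 bp had 20.0, 33.7 and 58.8 in p0-1 and 130.4, 157 and 235 in pMN (log2 ratio 2.24, adjusted p = 1.57e-05). A second Irx3 element, at -65597 bp, went from 121 to 359.8 (log2 ratio 1.57, adjusted p = 4.74e-05), so elements of the same gene moved in opposite directions. The element at the Irx3 start site had a log2 ratio of -0.17 and an adjusted p of 0.362.

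Among the Hedgehog pathway genes, Ptch1 changed most. Of 49 tested elements of 13 genes, 8 were higher and 1 lower in pMN by more than 2-fold, 18.4% of the list against 3.9% of all tested, and 2 were called, 4.08% against 0.521%. The element 58841 bp from the Ptch1 start site, which overlaps the annotated gene at chr13:63503435-63510354, had 69.8, 119 and 220.4 normalized counts in p0-1 and 905, 1205 and 2002 in pMN (log2 ratio 3.40, VST difference 3.32 ± 0.26 (SE), adjusted p = 1.17e-06). Each pMN sample had more than 4 times the count of every p0-1 sample. An element 7090 bp upstream of Ptch1 had means of 410.5 and 1490 (log2 ratio 1.86, adjusted p = 4.39e-05).

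Hhip, the gene of a decoy receptor for Hedgehog ligands, had 2 elements higher in pMN, at 1705 bp with a log2 ratio of 1.04 (adjusted p = 1.39e-05) and at -119079 bp with 1.53 (adjusted p = 0.00532). The second missed the threshold of 0.01 without replicate 3 of p0-1 at 0 nM SAG and without replicates 1 or 2 of pMN at 100 nM or at 500 nM, with adjusted p values between 0.0117 and 0.0166, and also by limma's voom (adjusted p = 0.0115) and with samples centered on their medians (0.0126). Gas1, a co-receptor gene, had 1 element with a log2 ratio of 1.05. Cdon, another co-receptor gene, had the only element of the list that fell, 79525 bp upstream at chr9:35371997-35373105, with 271, 387 and 488 in p0-1 and 78.4, 100.0 and 159.6 in pMN (log2 ratio -1.81, VST difference -1.71 ± 0.17 (SE), adjusted p = 8.84e-06).

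At the start site of Gli1, a transcriptional target of the pathway, the p0-1 samples were the most spread of all start sites described. They had 926, 1606 and 3535 normalized counts as lowest, median and highest, and pMN had 3192, 3402 and 3762, so the groups overlapped. The log2 ratio was 0.95, with an adjusted p of 0.00789. The 3 samples from 0 nM SAG were the lowest and the 3 from 10 nM the highest of p0-1, replicate 3 at 10 nM among the pMN values. Without replicate 1, 2 or 3 of p0-1 at 0 nM SAG, or without any single pMN sample, the adjusted p was between 0.0127 and 0.0220 and missed the threshold of 0.01, as it did with no variance trend in the fit (0.0108). None of the 59 tested elements within 500 kb of Gli1 passed a fold change of 2.

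**Figure D3:**
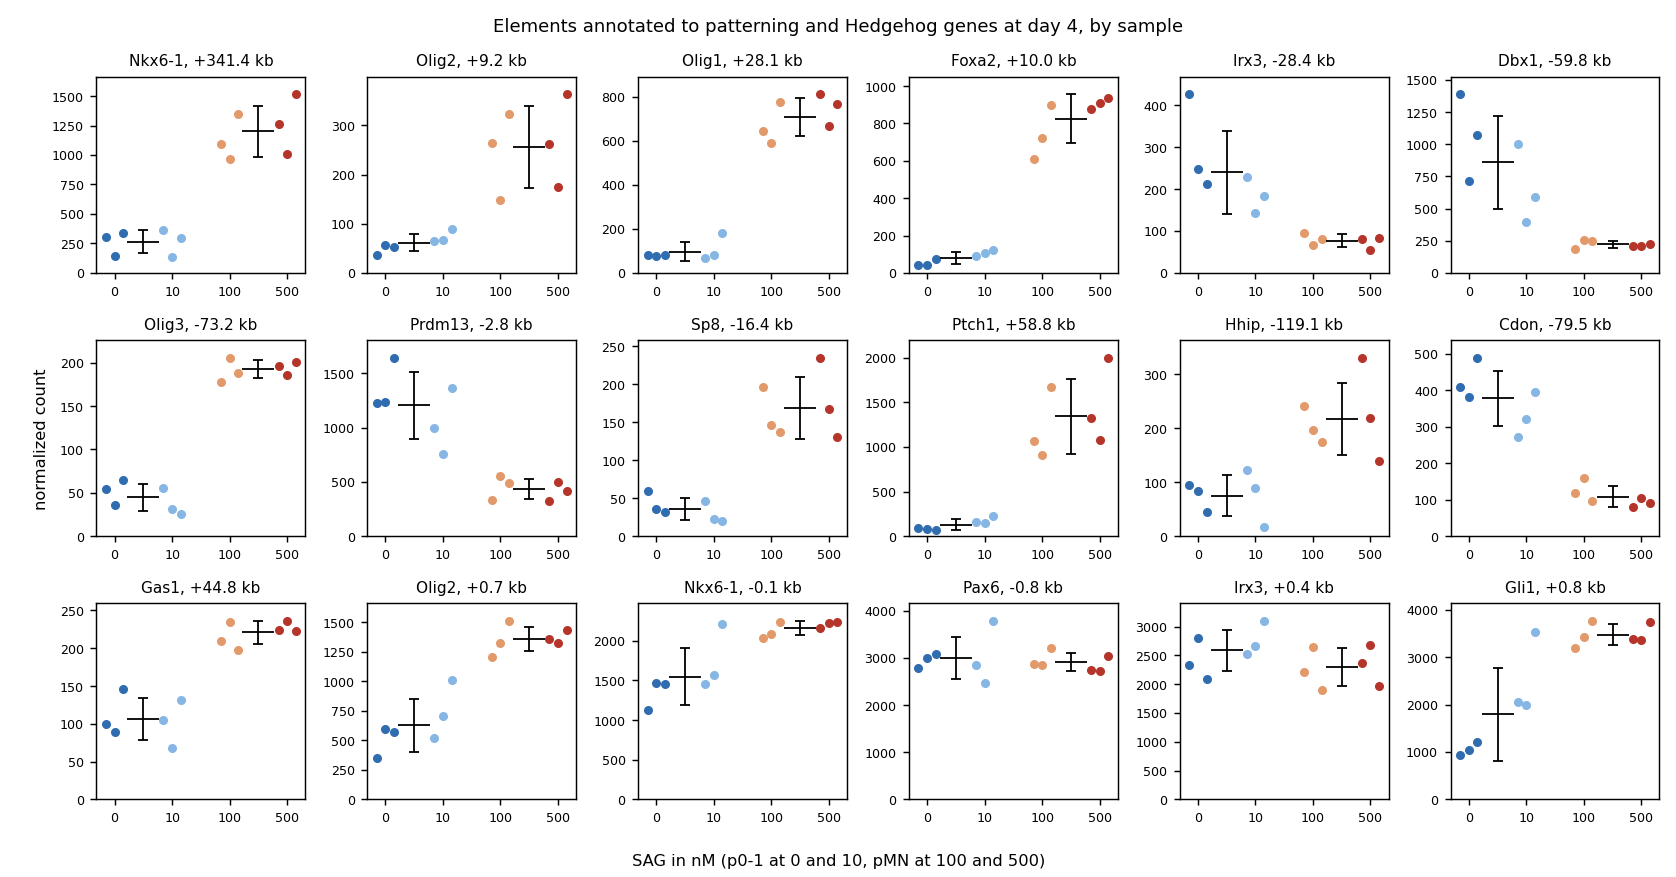
Normalized counts in each of the 12 samples at the elements annotated to patterning and Hedgehog genes, with the distance to the start site, the last 5 panels being elements within 1000 bp of a start site. Points are samples by SAG concentration and bars are the mean and SD of the 6 samples of each type; the groups overlap only in the panels of the Nkx6-1, Pax6, Irx3 and Gli1 start sites.

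The listed Notch, proneural and retinoic acid genes had no element past the fold of 2. The lists did not hold Hey2, a relative of the listed Hey1, or Stra6. The element nearest Hey2 was called (log2 ratio 2.71), and the Stra6 promoter fell past 2-fold (-1.29). None of 67 tested elements of 17 Notch and proneural genes and none of 34 elements of 10 retinoic acid genes passed a fold change of 2, where 3.9% of all tested elements did. Of 50 elements of 16 motor neuron and interneuron determinants 2 rose, 4% against 3.9% of all tested. They were near En1 (log2 ratio 1.44) and Foxp1 (1.01), and the median log2 ratio of the list was -0.18. Of 56 elements of the neural Sox and Pou genes 5 rose and 1 fell, 10.7% against 3.9% of all tested, and 2 were called, 3.57% against 0.521%. Sox5, a SoxD factor gene, had 4 of these increases, the largest at 57807 bp with a log2 ratio of 2.37 and the next at -103653 bp with 2.05. An element in Sox6, its relative, had 1.30, and an element near Sox3, a gene of neural progenitors, had -1.22.

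Markers of other cells that the gates could hold were read at their start sites. The summed normalized counts of the 7 neuronal genes were between 3066 and 5260 in p0-1 and between 3607 and 4298 in pMN. Those of 4 NMP and mesoderm genes with such an element were between 1610 and 2841 in p0-1 and between 1593 and 1902 in pMN, and in the NMPs of day 3 between 4187 and 4666. For 5 neural crest genes the ranges were 1581 to 3165 and 1557 to 2144, and for 5 pluripotency genes 1343 to 2594 and 1341 to 1751. These 4 lists overlapped between the groups. The floor plate and p3 genes reported here did not overlap. At the start sites of Foxa1, a forkhead factor gene, and Nkx2-9 the sum was between 926 and 1715 in p0-1, between 1908 and 2656 in pMN and between 2084 and 2879 in p3. The Foxa1 start site alone had an adjusted p of 0.866. Of 25 tested elements of 5 floor plate and p3 genes, 7 were higher in pMN by more than 2-fold (28% against 3.9%) and 4 were called (16% against 0.521%). These 7 were annotated to Foxa2 and Nkx2-9 and are also counted among the ventral genes. The median log2 ratio of the 25 was 0.08. In the other lists 2 of 16 neuronal elements (12.5%), at Elavl3 and Elavl4, were higher in pMN by more than 2-fold. So were 1 of 12 neural crest (8.33%), 1 of 10 pluripotency (10%) and 0 of 13 NMP and mesoderm elements. None of the elements of these 4 lists was called. Among the neuronal genes tested at the start site only Elavl4, an RNA-binding protein gene, differed past an adjusted p of 0.01, with 355 ± 55.6 (SD, n = 6) in p0-1 and 640.3 ± 66.0 (SD, n = 6) in pMN. No marker with such an element was at 0 in all 12 samples, and the part of other cells in the results was not tested.

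Called elements were distal. None of the 151 elements higher in pMN was annotated as promoter-TSS, against 23.4% of those tested. They were 86 intergenic, 62 intronic and 3 exonic elements. Their median distance to the nearest start site was 66.7 kb, and 32.5% were over 100 kb away, against 6.29 kb and 11.6% of all tested elements. Without the promoters the tested elements still lay closer, at a median of 15.6 kb. The called elements were narrower, with a median width of 1026 against 1385 bp, and had a median GC content of 45.4% against 53.4% of all tested and 51.4% of distal ones.

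Of 6979 tested promoter elements, 11 were higher and 3 lower by more than 2-fold, 0.201% against 3.9% of all tested. Those that rose included St18, a zinc finger factor gene, with a log2 ratio of 1.58, Nkx2-9 with 1.46, and Hoxd4 with 1.09. The promoter element annotated to 6430503K07Rik, at chr2:147183999-147190942, had 1.32, with means of 731 in p0-1 and 1819 in pMN. The 3 that fell were Cryab, a small heat shock protein gene, with -1.30, Stra6, a receptor gene for vitamin A uptake, with -1.29, and Palm3 with -1.26. At Stra6 the mean fell from 883 ± 156 (SD, n = 6) to 362 ± 75.3 (SD, n = 6), with an adjusted p of 8.98e-05.

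Along the genome, 115 of the 155 called elements had no other called element within 500 kb. There were 4 clusters of 3 or more, which together held 18 elements, all higher in pMN. The largest ran over 8 called elements from chr13:63496441-64081870, across Ptch1, Ercc6l2 and Hsd17b3. Within it 15 of 22 tested elements were higher by more than 2-fold, 0 were lower, and the median log2 ratio of the 22 was 1.42. A cluster at Gm815, chr19:26864980-26978921, had 4 called of 4 tested elements, with log2 ratios between 2.33 and 3.68. One around Nkx2-9, chr12:56610054-56633762, had 3 of 4, and one in the gene desert between Gpat3 and Nkx6-1, chr5:101090470-101433035, had 3 of 7. Within 500 kb of Pax6 none of 26 tested elements passed a fold change of 2.

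The letters TGGGTGGTC were searched on both strands of the central 300 bases of every tested element. They were in 15 of the 151 elements higher in pMN, 9.93%, and in 129 of all 29762 elements, 0.433%, or 0.465% of distal ones. The 15 included the 3 largest increases, near Nkx2-9, Gm51425 and Nxph1, and the element at Gm815. The median log2 ratio of all 129 elements with the letters was 0.07, and 15 of them were called higher in pMN. Other words were also more frequent in the elements higher in pMN than in all tested: TGTTTAC of forkhead factors in 11.9% against 3.19%, TAATTA in 11.3% against 5.03%, ACAATG of SOX factors in 32.5% against 14.9%, and ATGCAAAT of POU factors in 5.30% against 1.57%. CAGATG was in 27.2% against 17.3%, GGAATG of TEAD factors in 22.5% against 15.6%, and CATATG in 3.97% against 2.90%. AGGTCA of nuclear receptors was in 17.2% against 15.1%, and CAGCTG was less frequent, in 15.9% against 19.2%. The distal tested elements had shares nearer those of the elements higher in pMN for each of these words but CAGCTG (20.6%). They were 3.54% for TGTTTAC, 6.04% for TAATTA, 17.6% for ACAATG and 1.73% for ATGCAAAT. For CAGATG the distal share was 19.8%, for GGAATG 17.4%, for CATATG 3.40% and for AGGTCA 16.7%. With the fold threshold of 2, CAGCTG was instead in 22.2% of the 993 elements higher in pMN and in 24.0% of the 167 lower, and GGAATG was in 20.0% and 31.7%. These shares are descriptions, the called elements being poorer in GC than the rest, and a match is not a bound site.

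The comparison was also made within 2 pairs of conditions that share no sample. Between p0-1 at 0 nM and pMN at 500 nM, the widest gap in SAG, 188 of 30071 elements were called (0.625%), 172 higher and 16 lower in pMN. Between p0-1 at 10 nM and pMN at 100 nM, the narrowest, 92 of 29367 were called (0.313%), all higher. Blocking on replicate number gave 172 in the second pair. The count with 3 samples a side depended on single libraries, being 535 without replicate 1 of p0-1 at 10 nM and 0 without replicate 2, and 13, 5 and 0 without replicates 1, 2 and 3 of pMN at 100 nM. Limma's voom on the recovered reads called 0, with 4698 elements at an unadjusted p under 0.05.

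Directions were shared between the pairs. Of the 188 elements called at 0 and 500 nM, 159 were tested at 10 and 100 nM, and all 159 had the same direction there, 157 of them by more than 2-fold. The 61 elements called in both pairs made up 32.4% of the first list and 66.3% of the second. Over all elements tested in both, 67.1% had the same sign. The median log2 ratio of the 172 elements higher at 0 and 500 nM was 2.44, and of those tested at 10 and 100 nM it was 2.09 there. For the 92 elements called at 10 and 100 nM the median was 2.39 there, and 2.39 at 0 and 500 nM where tested. Each list was chosen by its ratio in its own pair.

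A test of the difference between the pairs called 0 of 29762 elements, with 1076 at an unadjusted p under 0.05 by limma, and voom also called 0. Of the 135 elements higher in pMN that both pairs tested, 83 had the larger ratio at 0 and 500 nM. Within pMN, no element differed by more than 2-fold between 100 and 500 nM by limma or by voom (230 of 29915 at an unadjusted p under 0.05 by limma). Of the 151 elements higher in pMN, 137 had a higher mean at 500 nM, with a median log2 ratio of 0.21 against 0.00 over all tested. In p0-1, with no filter on the mean, 75 of the same 151 elements had a higher mean at 10 than at 0 nM, with a median log2 ratio of -0.01. Only 34 of the 151 passed the filter in p0-1. Of these, 24 had a higher mean at 10 nM, with a median log2 ratio of 0.19 against 0.16 over all tested. Within p0-1, 0 of 29373 differed between 0 and 10 nM by limma or by voom (834 at an unadjusted p under 0.05 by limma). With the replicate block 189 did, 3 higher and 186 lower at 10 nM, and with the samples also centered on their medians 0 did.

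**Figure D4:**
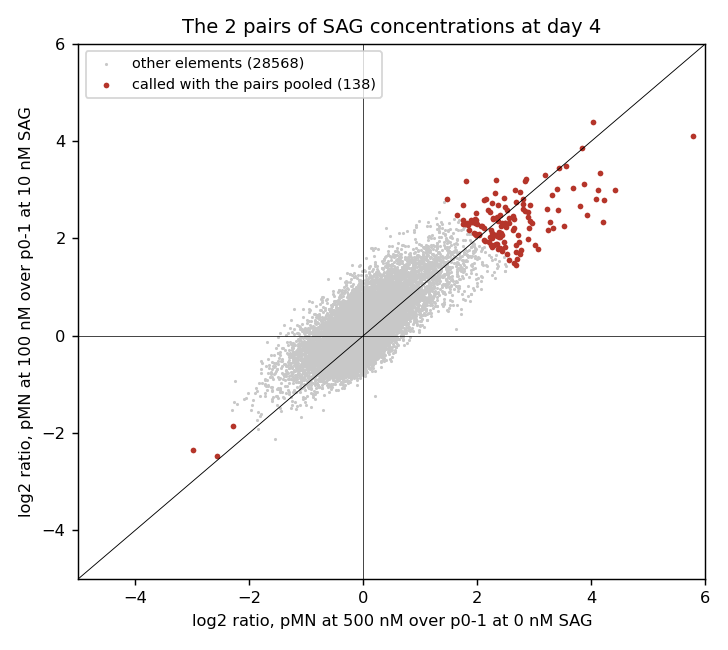
Log2 ratio, pMN over p0-1, at 10 and 100 nM SAG against that at 0 and 500 nM, for the 28706 elements tested in both pairs and in the pooled comparison; the 2 axes share no sample. Red points are the 138 of these elements that were called with the pairs pooled. They lie on the same side of 0 on both axes and around the diagonal. The call used the samples of both axes, so the position of these points is a description.

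The p2 NPs, which lie between p0-1 and pMN in the neural tube, were intermediate at the called elements. These were sorted at 10 nM, the concentration shared with p0-1, and at 100 nM, shared with pMN. On the VST scale their mean lay between those of p0-1 and pMN at all 151 elements higher in pMN at both concentrations, at a median of 47.0% of the way from p0-1 to pMN at 10 nM and 64.5% at 100 nM. The 4 elements lower in pMN were intermediate as well, with medians of 43.1% and 56.6%. At the element upstream of Nkx2-9, p2 had means of 102 at 10 nM and 275 at 100 nM. Since the elements were chosen for a gap between p0-1 and pMN, these positions are a description.

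The p3 NPs, the most ventral, were less uniform at these elements. Of the 151 elements higher in pMN, 84 were within 2-fold of pMN in p3, 63 were lower than in pMN by more than 2-fold, and 4 were higher by more than 2-fold. The elements of Ptch1 and Cobl had means of 1675 and 986 in p3, above 1342 and 648 in pMN. The elements of Olig1 and Olig3 had 128 and 32.9 in p3, against 709.5 and 192 in pMN.

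Most of the elements higher in pMN were nearly closed in the NMPs of day 3. The median over the 151 elements was 16.5 normalized counts in NMPs, 56.4 in day 4 p0-1 and 307.9 in day 4 pMN. In 88 of them the NMP mean was under 20, and in 109 it was more than 2-fold below that of p0-1. In 9 elements it was more than 2-fold above p0-1. The Olig2 element at 9237 bp was of this kind, with 148 in NMPs, 61.3 in p0-1 and 256 in pMN.

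On later days the difference at these elements had the same direction. At day 5 the 155 elements all differed in the same direction in the mean of 6 p0-1 and 5 pMN samples. At day 6, with 5 and 4 samples, 152 did. These counts include 53 elements at day 5 and 61 at day 6 that did not pass the filter on those days. The share of all tested elements that kept their direction is not given here. Of the 155, 102 passed the filter at day 5 and 73 were called again, 70 higher and 3 lower. These are 47.1% of the day 4 elements and 11.6% of the 628 called at day 5 (1.97% of 31863 tested). At day 6, 94 passed the filter and 61 were called again, 39.4% of the day 4 elements and 6.33% of the 964 called that day (2.98% of 32346). The median log2 ratio of the 151 elements was 2.36 at day 4, 2.28 at day 5 and 2.16 at day 6.

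Levels at the named elements took different courses over the days, given here as means with no test. The element nearest Nxph1 had a pMN mean of 552 at day 4, 208 at day 5 and 120.0 at day 6, and the one nearest Olig3 went from 192 to 38 and 24.4. Levels in p0-1 fell there too, from 38.2 to 8.95 and 12.8 near Nxph1 and from 44.6 to 6.07 and 8.74 near Olig3. The Sp8 element had 169, 525 and 1107 in pMN on the 3 days, and 35.8, 62.6 and 226 in p0-1. At Dbx1 the p0-1 mean went from 861 to 1904 and 2152, while pMN was between 194 and 322.

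A test of the change of the difference from day 4 to day 5, added after the data were seen, passed at a fold change above 2 for 606 of 30951 elements (1.96%). In 473 of them pMN gained relative to p0-1 and in 133 it lost. Among the called elements 126 were tested, and 7 of the 122 higher in pMN passed, with 2 gaining and 5 losing. The day 4 values also chose these elements, so their count carries no weight as a test. At Olig2 the difference grew at the start site (adjusted p = 0.00156) and at the element 9237 bp away (adjusted p = 0.00442). Their pMN means went from 1358 to 1952 and from 256 to 522. The p0-1 means fell at both elements over the same days, from 626 to 381 at the start site.

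**Figure D5:**
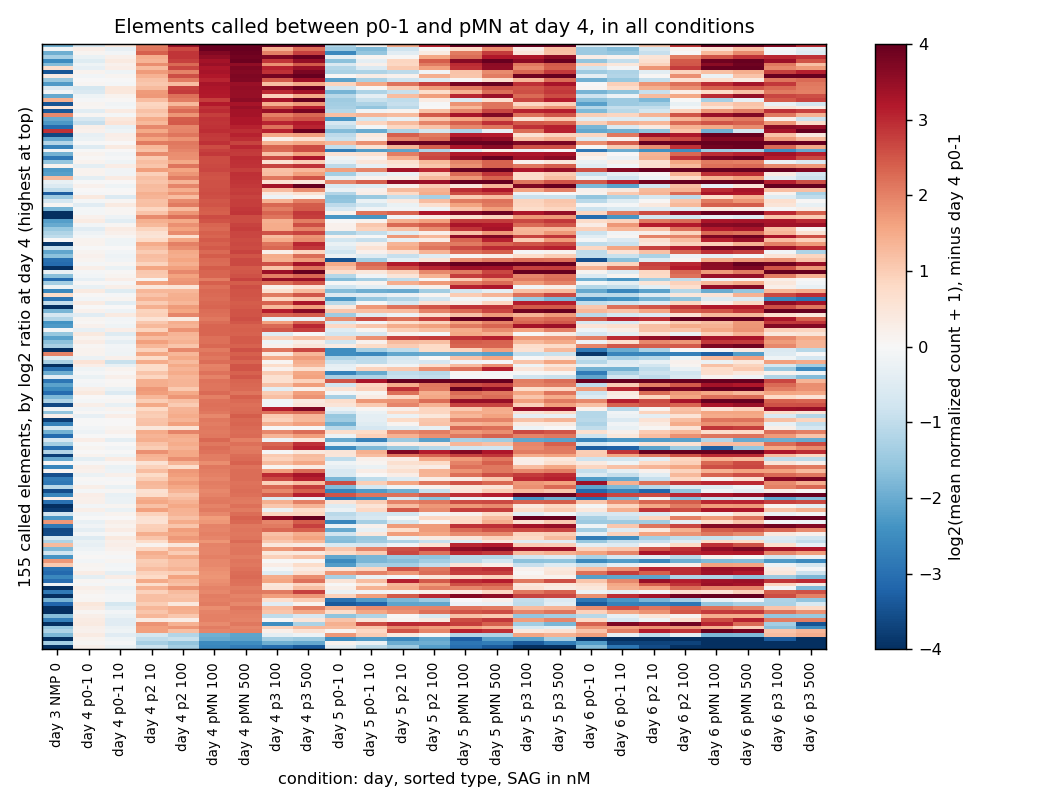
The 155 called elements (rows, by log2 ratio at day 4) in each of the conditions of the series, as log2(mean normalized count + 1) minus that of day 4 p0-1. Columns are ordered by day, sorted type and SAG concentration in nM; the p2 columns of day 4 lie between p0-1 and pMN, and the 4 elements lower in pMN are at the bottom.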

How the data were processed

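The comparison rests on 12 of 67 CaTS-ATAC samples. Per the labels and the study's methods, the authors aligned reads to mm10, called peaks with MACS, counted reads in consensus peaks and transformed the counts with DESeq2, so that the deposited values are on a log2 scale (VST, variance-stabilizing transformation). Inverting the transformation gave back whole reads, checked below 1000 reads in every sample, and normalized counts. The deposited HOMER annotation gave coordinates, nearest gene and class. All 111638 elements of the value table lay within the GRCm38 reference, from which sequences were read.

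VST values were fitted with limma 3.58.1 (R 4.3.3), the variance being allowed to follow the mean level. Tests were two-sided, and p values were adjusted by Benjamini and Hochberg's method across all elements whose mean exceeded 100 normalized counts in the fit. The log2 ratio is that of mean normalized counts, and the VST difference with its SE comes from the fit. Tables were made in Python 3.11.15 with pandas 2.3.3. Precision rests on 14866189 to 21532874 reads per sample and 6 samples a side. On simulated data with 29762 elements, the pooled fit recovered 98 of 100 elements changed 6-fold and 100 of 100 changed 12-fold, with 0 false calls. The fit of 3 against 3 samples recovered 93 and 96. Simulated samples were drawn independently, without the pairing by replicate number described below, and only changes of these sizes were planted. The recovery may therefore not hold for the fits of the real samples.

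Replicate numbers of the sample titles paired the samples across conditions. Deviations from the condition means correlated in all 18 pairs with the same number, with r between 0.296 and 0.814, and had a median r of -0.356 in the 36 pairs with other numbers. The pairing comes from the data, and the planned fit has no block.

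Named elements were the 10 largest increases, 1 per nearest gene, every called decrease, the largest change past a fold of 2 at each gene of the gate, ventral, dorsal and Hedgehog lists, and the element nearest the start site within 1000 bp for 8 regulators. 1 marker gene is not reported here. Other elements of the lists, promoters and clusters were named after their values were seen. The comparison, lists and tests were chosen with earlier results of these data known. Alternatives covered the replicate block, the filter, the thresholds, the scale of the ratio, voom, centering on sample medians, the variance trend, the samples in the fit and leaving out each replicate.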

Additional observations from a re-analysis of the deposited data

Results flagged for a closer look

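In 6 of 64 groups of 6 samples at the named elements (9.38%), 1 sample lay far from the others by Dixon's test, which chance alone gives in about 1 of 20 groups. Replicate 3 of p0-1 at 10 nM SAG was the highest p0-1 sample at the elements nearest Olig1, with 183 normalized counts against 68.5 to 82.5 in the others, and Gm815, with 106 against 26.7 to 48.5. Replicate 3 of p0-1 at 0 nM was highest near Gm51425, with 32.3 against 12.7 to 19.5. Replicate 1 of p0-1 at 0 nM was highest at the Irx3 element at -28362 bp, with 426 against 142 to 248. Replicate 2 of p0-1 at 0 nM was lowest near 4930405L22Rik, with 5.14 against 15.8 to 21.3. Replicate 1 of pMN at 500 nM was highest near Esrrg, with 319.9 against 202 to 232.

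The difference between pMN and p0-1 changed from day 4 to day 5 at 3 named elements. The log2 ratio went from 4.18 to 3.11 near Gm51425, a change of -1.07 (adjusted p = 0.00145). That element was named for its large day 4 ratio, so the choice itself favored a smaller one at day 5. It did not pass the filter at day 5, with means of 5.58 in p0-1 and 48.1 in pMN. At the Olig2 element at 9237 bp the log2 ratio went from 2.06 to 3.74, a change of 1.68 (adjusted p = 0.00442). At the Olig2 start site it went from 1.12 to 2.36, a change of 1.24 (adjusted p = 0.00156).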

How the results depend on the processing

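The count of called elements between p0-1 and pMN was 124 to 190 when each sample was left out, 121 to 187 of them higher and 2 to 6 lower. Without the filter on the mean it was 1093, 1068 higher and 25 lower, with 6804 past a fold change of 2, more elements being tested. With the ratio on the VST scale 2 elements were lower. At day 5 and day 6 the calls shared with day 4 were 545 and 419 without the filter, and between 61 and 82 and between 51 and 66 with a sample left out. At 10 and 100 nM SAG the count was 92, with 172 under the replicate block, 164 under the block with centering (added after the data were seen), 327 without the filter, 0 by voom, 28 with centering alone, 168 at an adjusted p under 0.05, 163 with all NP samples of day 4 in the fit and 0 to 535 with a sample left out. At 0 and 500 nM it was 1049 without the filter. The block gave 189 elements between 0 and 10 nM in p0-1 and, apart from the 172 above, changed no other count by over 1.5 times, and it changed the call of 1 named element, the Nkx6-1 start site. The change from day 4 to day 5 had 5902 calls without the filter and 927 at an adjusted p under 0.05. The cause was not tested apart from the number of elements tested. No named element reversed its direction.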
